A study of Mus musculus with 23 samples.

Results

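The 9 genes described here encode enzymes of the mitochondrial citrate cycle and were taken by their symbols from the table of deposited expression values, which held 14651 genes in brown adipose tissue (BAT) of the mouse. All 9 were present. They were citrate synthase (Cs), the NADP-dependent isocitrate dehydrogenase (Idh2), the 3 subunits of the NAD-dependent isocitrate dehydrogenase (Idh3a, Idh3b and Idh3g), the E1 subunit of the 2-oxoglutarate dehydrogenase complex (Ogdh), the alpha subunit of succinyl-CoA ligase (Suclg1), fumarase (Fh1) and malate dehydrogenase (Mdh2). The 4 genes of the calcium-regulated dehydrogenases, Idh3a, Idh3b, Idh3g and Ogdh, were set against the other 5.

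RNA-seq was performed on BAT of 23 male mice aged 8 to 12 weeks on a C57BL/6 background, each mouse giving 1 library. The floxed line was made in stem cells of mixed background and backcrossed to C57BL/6J to near, not full, homogeneity. Control mice carried 2 floxed copies of Mcu, the pore-forming subunit of the mitochondrial calcium uniporter (Mcu[fl/fl]), and no Cre; 6 were kept at room temperature (RT) and 5 at 4°C for 6 hours. BAT-Mcu-KO mice (Mcu[fl/fl];Ucp1-Cre) carried the same floxed alleles and a Cre transgene driven by the Ucp1 promoter, with 6 mice at RT and 6 at 4°C. All 4 groups thus shared the floxed alleles, and the Cre was carried by the BAT-Mcu-KO groups only, so Mcu deletion and Cre expression cannot be told apart. The Ucp1 promoter is active in brown adipocytes, so that other cells of the tissue keep Mcu. Mice at 4°C were housed singly without bedding and, by the general protocol, without food, and whether the mice at RT had food is not given in the sources used here, so cold and these housing conditions cannot be told apart.

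The citrate cycle oxidizes acetyl-CoA to carbon dioxide in the mitochondrial matrix and passes the electrons to the respiratory chain, which in brown adipocytes drives heat production through UCP1. Calcium in the matrix activates the NAD-dependent isocitrate dehydrogenase and the 2-oxoglutarate dehydrogenase complex directly by raising their affinity for substrate, and it acts on the pyruvate dehydrogenase complex through a phosphatase. The uniporter is the main route by which calcium enters the matrix. This regulation acts on the enzymes, whereas the data here are RNA levels, and the comparisons ask whether the RNA of the calcium-regulated enzymes and of their neighbours in the cycle differed with cold or with loss of Mcu.

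Total reads on the genes of the table ranged from 7129271 to 21006347 per mouse. The lowest read count of any of the 9 genes in any mouse was 1838, for Idh2, so counting error was small beside the spread between mice. Mcu was at 81.4 to 136 normalized counts in control mice at RT and at 70.8 to 132 in control mice at 4°C, against 15.2 to 42.4 and 24.0 to 39.9 in BAT-Mcu-KO mice, with no overlap between genotypes. All 8 brown adipocyte markers were present, with summed levels of 120517 to 175353 normalized counts at RT and 242228 to 297922 at 4°C over both genotypes. Ucp1 had the highest mean of the 8 at 4°C, and the markers did not all rise. With cold 4 of 8 were called higher in each genotype, beside 22.3% of all genes in control mice and 21.4% in BAT-Mcu-KO mice. Cidea (-0.32) and Cox8b (-0.48) were called lower in control mice, beside 23.7% of all genes. Of 4 general adipocyte markers, 2 were called higher and 1 lower in control mice, and 1 higher with Mcu deleted, beside these same shares. The 14 skeletal muscle markers varied widely between mice: their summed level was 63.6 to 8895 in control mice at RT, 24.9 to 46685 in control mice at 4°C, 35.3 to 65826 at RT in those lacking Mcu and 79.3 to 11641 in these at 4°C. None of the 14 passed the test in any comparison, and fitted over all mice no slope of a citrate cycle gene on this sum passed the test (lowest limma adjusted p 0.844, for Idh2).

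The promoters of the genes that passed a test with cold in control mice (Idh2, Suclg1 and Fh1) and of the 2 genes that held a whole cAMP response element (Ogdh and Mdh2) are given here, cAMP being the messenger through which noradrenaline acts on brown adipocytes in the cold. Each is the stretch from 150 bases before to 30 bases after an annotated start of transcription, from RefSeq on GRCm38.p6, 5′ to 3′ on the strand of the gene. Capitals mark the half-site TGACG of the cAMP response element on either strand (CGTCA on the other), and adjoining or overlapping half-sites run together.

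Idh2 (chr7:80115321-80115500, minus strand): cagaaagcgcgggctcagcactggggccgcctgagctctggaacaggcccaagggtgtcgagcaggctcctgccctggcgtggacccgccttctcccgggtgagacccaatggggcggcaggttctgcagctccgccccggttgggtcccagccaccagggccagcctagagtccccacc
Suclg1 (chr6:73248355-73248534, plus strand): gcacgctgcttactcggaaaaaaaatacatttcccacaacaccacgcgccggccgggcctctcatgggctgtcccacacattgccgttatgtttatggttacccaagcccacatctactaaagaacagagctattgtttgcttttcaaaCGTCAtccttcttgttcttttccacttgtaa
Fh1 (chr1:175625606-175625785, minus strand): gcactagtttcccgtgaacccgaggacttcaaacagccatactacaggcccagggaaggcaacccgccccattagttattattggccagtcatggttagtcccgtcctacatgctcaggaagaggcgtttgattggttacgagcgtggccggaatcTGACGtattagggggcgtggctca
Ogdh (chr11:6291447-6291626, plus strand): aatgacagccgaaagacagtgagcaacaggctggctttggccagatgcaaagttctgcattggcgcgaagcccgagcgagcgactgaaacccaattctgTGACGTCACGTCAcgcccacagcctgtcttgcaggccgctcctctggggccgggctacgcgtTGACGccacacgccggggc
Mdh2 (chr5:135778499-135778678, plus strand): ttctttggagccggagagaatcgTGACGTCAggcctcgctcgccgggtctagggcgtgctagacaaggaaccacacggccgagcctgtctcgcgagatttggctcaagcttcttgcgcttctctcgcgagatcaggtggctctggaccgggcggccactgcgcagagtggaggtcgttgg

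Within windows of 300 bases, from 250 before to 50 after the start, TGACG stood in 20.8% of 32851 promoters on either strand. It stood in 6 of the 8 citrate cycle genes found among these promoters (Idh3b, Idh3g, Ogdh, Suclg1, Fh1 and Mdh2). Idh3a was not among the promoters searched, so nothing is known here of its sites. Both half-sites overlapping as TGACGTCA, which is its own reverse complement, stood in 1.79% of promoters and in Ogdh and Mdh2. In the Ogdh sequence above a further half-site follows the palindrome directly. The half-site AAGGTCA of the estrogen-related receptors stood in 4.72% of promoters on either strand and, among the 8 genes, in Ogdh at another of its annotated starts. Genes with several annotated starts had more windows in which to match, and these matches describe letters only. Ogdh and Mdh2 did not pass the main test with cold in either genotype, and Idh2 had no half-site in its window. Any part of these sites in the response to cold was not tested.

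**Figure D1:**
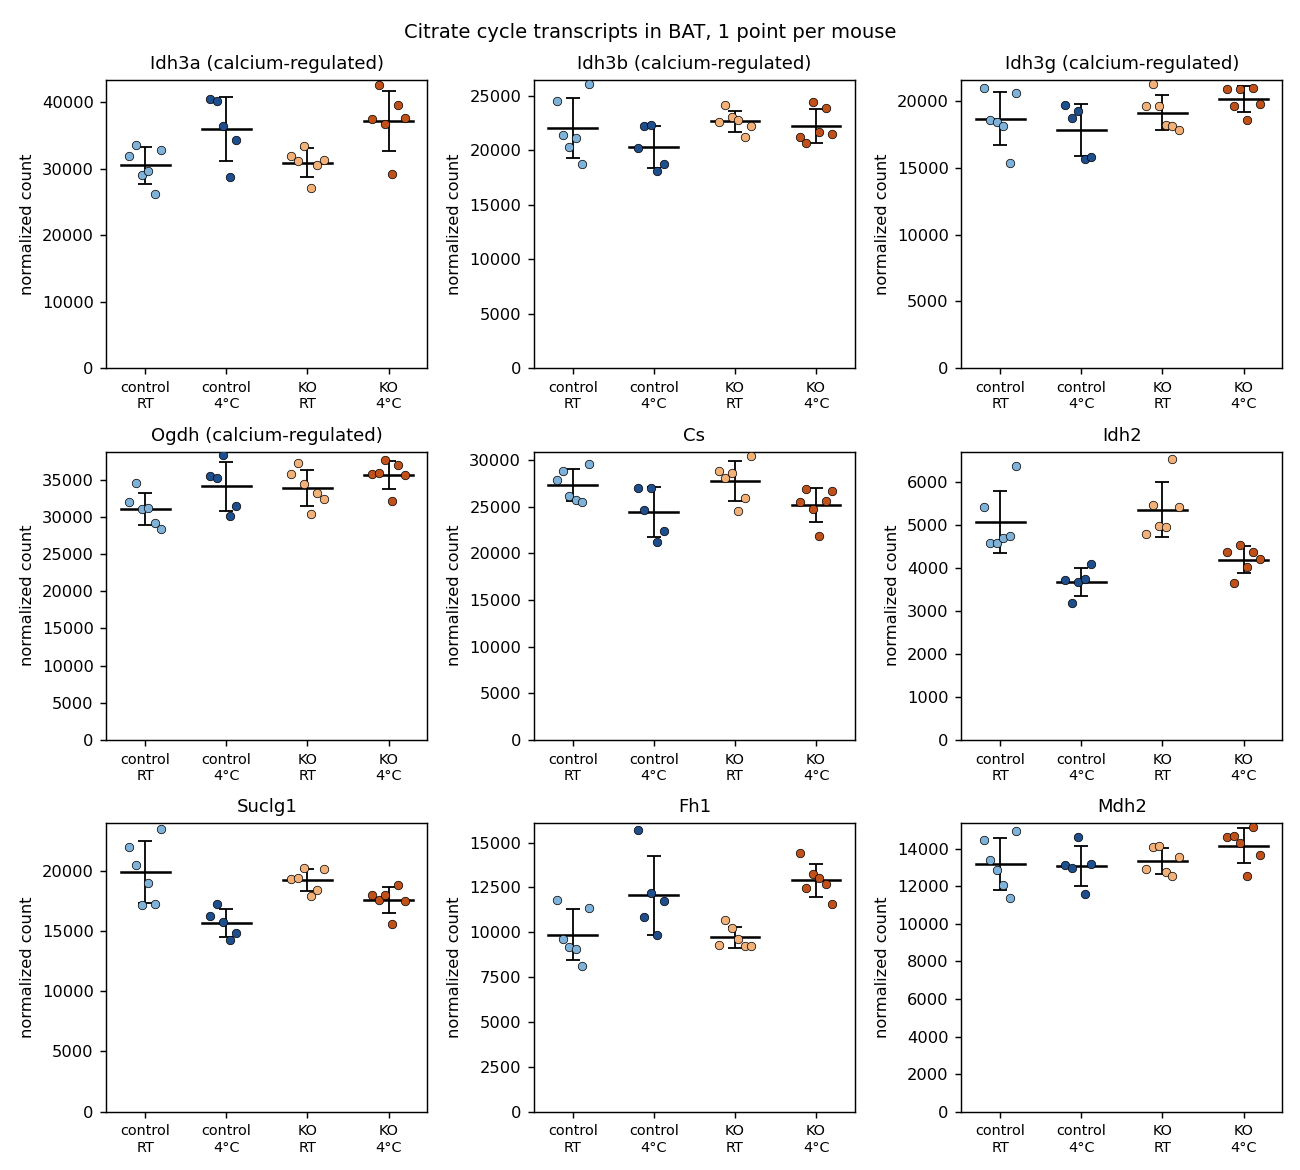
Normalized counts (linear axis from 0) of the 9 citrate cycle genes, with 1 point per mouse in the 4 groups (KO, BAT-Mcu-KO), a line at the mean and bars of 1 SD. Idh2 is lower at 4°C in both genotypes with no overlap. Fh1 has a higher mean at 4°C in both, with no overlap in BAT-Mcu-KO mice and with overlap in control mice. The other panels show ranges that mostly overlap.

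Of the 9 genes, 3 passed the test with cold in control mice, where 46% of all 14651 genes did (limma adjusted p under 0.05, adjusted over all genes). Idh2 and Suclg1 fell, beside 23.7% of all genes, and Fh1 rose, beside 22.3%. None of the 4 calcium-regulated genes passed. With Mcu deleted 3 of 9 passed against 43.3% of all genes: Idh2 fell, beside 21.9% of all genes, and Fh1 and Idh3a rose, beside 21.4%. The changes were small, with no gene of the 9 beyond 0.5 on the log2 scale, and the median log2 fold change of the 9 was -0.07 in control mice and 0.07 with Mcu deleted, beside -0.02 over all genes in each. In this bulk tissue, fewer cells of a type and less RNA per cell cannot be told apart.

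The NAD-dependent isocitrate dehydrogenase is a complex of catalytic alpha subunits with beta and gamma subunits, and it is allosterically activated by ADP and calcium. Idh3a (catalytic subunit; GRCm38 chr9:54586334-54604661, plus strand) stood at 26147 to 33656 normalized counts in the 6 control mice at RT, with a median of 30784, and at 40469, 40157, 36433, 28723 and 34379 in the 5 at 4°C. Of the 5 cold mice 4 thus lay above every RT mouse and the remaining mouse, number 4, lay within the RT range. The log2 fold change was 0.23 ± 0.10 (SE) with a 95% interval of 0.02 to 0.44, and it did not pass the test (limma adjusted p = 0.0652).

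In BAT-Mcu-KO mice Idh3a ranged from 27065 to 33508 at RT, with a median of 31256, and from 29212 to 42586 at 4°C, with a median of 37573. Mouse 4 at 4°C lay within the RT range and the other 5 cold mice above it. The log2 fold change was 0.26 ± 0.10 (limma adjusted p = 0.0326). Idh3a was close to the threshold in both genotypes: in control mice it passed with DESeq2 (adjusted p = 0.0399) and edgeR (adjusted p = 0.0469), and in BAT-Mcu-KO mice the call was lost without any one of RT mouse 4 or 4°C mice 1, 2, 5 or 6 (adjusted p = 0.0528 to 0.0863). Among mice with a summed muscle marker level under 10000 the BAT-Mcu-KO value was 0.19 (adjusted p = 0.314). Over all alternatives the control value ran from 0.12 to 0.37, with a limma adjusted p of up to 0.343.

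Idh3b and Idh3g, the beta and gamma subunits, did not pass the test with cold. Idh3b (chr2:130279309-130284547, minus strand) was at 18729 to 26063 normalized counts in control mice at RT and at 20175, 22222, 22308, 18098 and 18691 in those at 4°C, a log2 fold change of -0.11 with an interval of -0.29 to 0.07. With Mcu deleted Idh3b was at 21210 to 24184 at RT and 20677 to 24407 at 4°C, a log2 fold change of -0.03 with an interval of -0.20 to 0.14. The ranges overlapped in both genotypes. Idh3g (chrX:73778963-73786897, minus strand) was at 15390 to 20951 at RT and at 19667, 18698, 19274, 15683 and 15767 at 4°C in control mice (-0.07, interval -0.24 to 0.11). In BAT-Mcu-KO mice Idh3g was at 17852 to 21290 at RT and 18536 to 20937 at 4°C (0.08, interval -0.09 to 0.24). The 2 subunits kept a ratio near 1 in every group, from a mean of 1.10 ± 0.06 (SD, n = 6, BAT-Mcu-KO mice at 4°C) to 1.19 ± 0.05 (n = 6, BAT-Mcu-KO mice at RT).

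Since scaling between libraries cancels in a ratio of 2 genes of 1 library, the balance within the complex was also described directly. The ratio of Idh3a to the mean of Idh3b and Idh3g was 1.41 to 1.69 in control mice at RT and 1.70 to 2.03 at 4°C, with no overlap. With Mcu deleted the ratio was 1.32 to 1.57 at RT and 1.45 to 2.11 at 4°C, where the ranges overlapped. The margin between the control groups was slight, with 1.686 as the highest value at RT and 1.701 as the lowest at 4°C. In control mice this ratio sets a gene with a positive log2 fold change over genes with negative ones. It therefore adds no support to the change of Idh3a.

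The 2-oxoglutarate dehydrogenase complex is built of E1 (Ogdh), E2 (Dlst) and E3 (Dld), of which E1 carries the calcium sensitivity. Ogdh (chr11:6291633-6356642, plus strand) was at 28450 to 34565 normalized counts in control mice at RT, with a median of 31195, and at 35570, 35237, 38316, 30156 and 31488 at 4°C. Above all RT mice lay 3 cold mice, and 2 lay within their range (log2 fold change 0.13, interval -0.04 to 0.30, limma adjusted p = 0.193). In BAT-Mcu-KO mice Ogdh was at 30455 to 37308 at RT and 32168 to 37608 at 4°C, a nearly complete overlap (0.07, interval -0.09 to 0.23). Ogdh in control mice passed under quantile normalization only (0.26, adjusted p = 0.00503).

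Citrate synthase, which condenses acetyl-CoA with oxaloacetate at the entry of the cycle, did not pass the test. Cs (chr10:128337734-128362479, plus strand) was at 25556 to 29629 normalized counts in control mice at RT and at 27006, 24673, 26983, 21202 and 22354 at 4°C (log2 fold change -0.16, interval -0.34 to 0.01, limma adjusted p = 0.115). In BAT-Mcu-KO mice the values were 24536 to 30466 at RT and 21818 to 26951 at 4°C (-0.14, interval -0.30 to 0.03). Both intervals reached just past 0. With libraries scaled to their 75th percentile Cs passed in control mice (-0.27, adjusted p = 0.0099). That scaling moved the median of all genes in this comparison from -0.02 to -0.13. Over all alternatives Cs ran from -0.27 to -0.014 in control mice and from -0.19 to -0.018 with Mcu deleted, so its fall was nearly absent under some.

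Idh2, the mitochondrial isocitrate dehydrogenase that makes NADPH and is not calcium-regulated, fell with cold in both genotypes. Idh2 (chr7:80094846-80115392, minus strand) was at 4573 to 6364 normalized counts in control mice at RT, with a median of 4716, and at 3718, 3181, 3669, 3730 and 4094 at 4°C. Every cold mouse lay below every RT mouse, as held in this direction for 12.3% of all genes. The log2 fold change was -0.45 ± 0.09 (SE), or 27.0% lower, with a 95% interval of -0.65 to -0.26 (limma adjusted p = 0.000305).

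In BAT-Mcu-KO mice Idh2 was at 4793 to 6531 at RT, with a median of 5199, and at 3650 to 4534 at 4°C, with a median of 4279. Again the groups did not overlap, as for 11.9% of all genes in this direction, and the log2 fold change was -0.35 ± 0.09 (limma adjusted p = 0.0026). Idh2 kept its direction and its call in both genotypes under all 36 alternatives. The ratio of Idh3a to Idh2, the catalytic NAD-dependent subunit over the NADP-dependent enzyme, was 5.16 to 7.35 in control mice at RT and 7.70 to 12.6 at 4°C. With Mcu deleted the ratio was 4.68 to 6.73 and 7.27 to 11.7, again with no overlap.

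Succinyl-CoA ligase forms succinate with the yield of a nucleoside triphosphate, and Suclg1 encodes the alpha subunit shared by its ATP- and GTP-forming versions. Suclg1 (chr6:73248382-73276911, plus strand) was at 17134 to 23465 normalized counts in control mice at RT, with a median of 19717, and at 16237, 17264, 15772, 14267 and 14814 at 4°C. Only the highest cold mouse reached into the RT range. The log2 fold change was -0.34 ± 0.08 (limma adjusted p = 0.00205). Among mice with a summed muscle marker level under 10000, which left 2 control mice at 4°C, it was -0.30 (adjusted p = 0.0957).

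In BAT-Mcu-KO mice Suclg1 was at 17888 to 20249 at RT and at 15561 to 18840 at 4°C, and did not pass (-0.13 ± 0.08, limma adjusted p = 0.199). The difference between the genotypes in this response was 0.20 on the log2 scale, with an interval of -0.04 to 0.44, and did not pass the interaction test (limma adjusted p = 0.850). A smaller response to cold in BAT-Mcu-KO mice was thus not shown for Suclg1.

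Fumarase hydrates fumarate to malate, and the gene Fh1 encodes both its mitochondrial and its cytosolic form. Fh1 (chr1:175600374-175625635, minus strand) was at 8146 to 11802 normalized counts in control mice at RT, with a median of 9398, and at 15697, 10854, 12186, 9866 and 11722 at 4°C. Mouse 1 stood highest, and mice 2, 4 and 5 lay within the RT range. The log2 fold change was 0.28 ± 0.10 (limma adjusted p = 0.0263), and without control 4°C mouse 1 it was 0.19 (adjusted p = 0.119). The call was also lost without control RT mouse 3, 4 or 5 (adjusted p = 0.0507 to 0.0693) and with libraries scaled to their 75th percentile (0.18, adjusted p = 0.169).

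With Mcu deleted Fh1 was at 9210 to 10670 normalized counts at RT and 11588 to 14409 at 4°C, with no overlap, as for 12.4% of all genes in this direction. The log2 fold change was 0.41 ± 0.10, or 32.7% higher (limma adjusted p = 0.00149), and the call held under all 36 alternatives. The genotypes were not shown to differ in this response (interaction 0.12, interval -0.17 to 0.42).

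Malate dehydrogenase closes the cycle by regenerating oxaloacetate. Mdh2 (chr5:135778480-135790398, plus strand) was at 11387 to 14968 normalized counts in control mice at RT and at 13146, 12972, 14611, 11610 and 13199 at 4°C, all within the RT range (log2 fold change -0.01, interval -0.17 to 0.16). In BAT-Mcu-KO mice Mdh2 was at 12556 to 14164 at RT and 12577 to 15167 at 4°C (0.09, interval -0.07 to 0.24). It did not pass in either genotype.

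**Figure D2:**
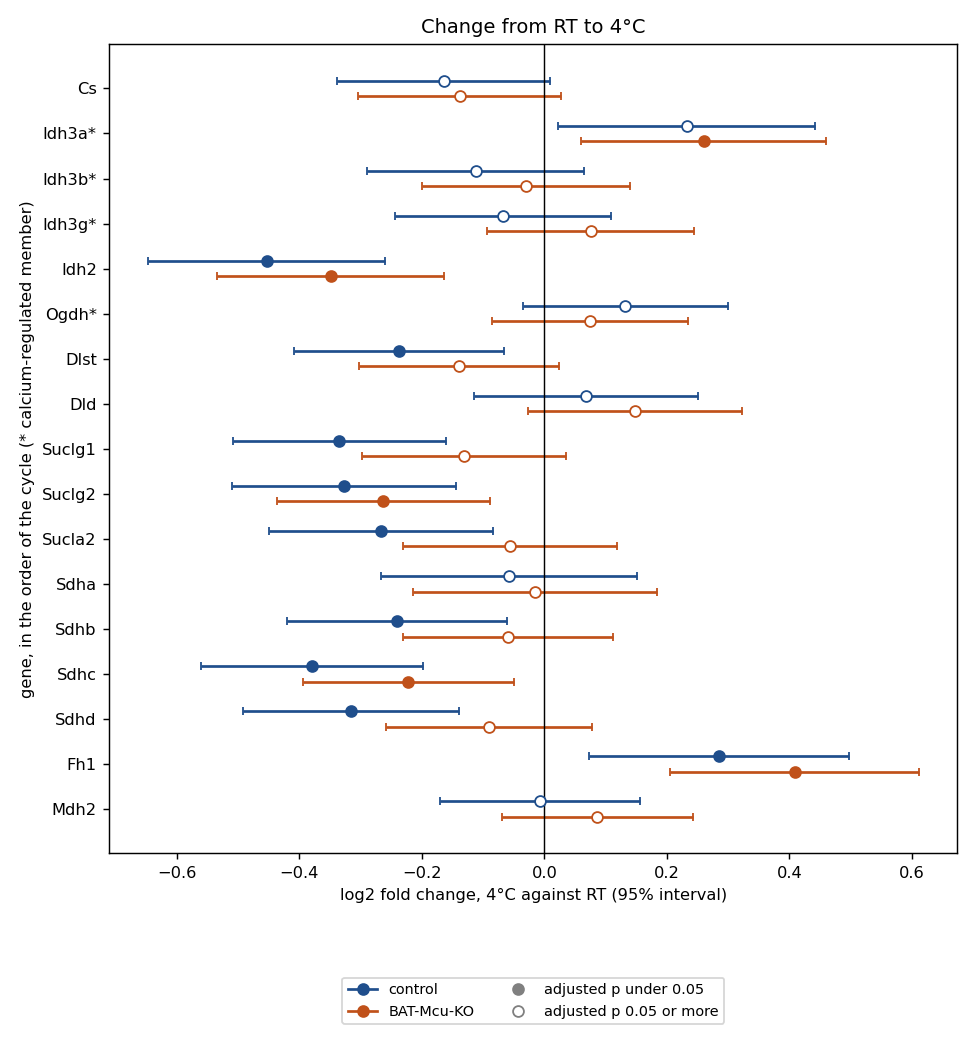
Log2 fold change from RT to 4°C with its 95% interval for 17 citrate cycle genes in the order of the reactions, in control and BAT-Mcu-KO mice, where filled points passed at an adjusted p under 0.05. Most points lie within 0.4 of 0; Idh2 lies lowest and Fh1 highest in both genotypes.

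The remaining citrate cycle subunits were listed together with Dhtkd1, which is not a subunit of the cycle. Of this list 10 genes were in the table. In control mice 6 of the 10 fell, beside 23.7% of all genes, and 1 rose, beside 22.3%. Their median log2 fold change was -0.24. Those that fell included Sdhc (-0.38 ± 0.09) and Sdhd (-0.32 ± 0.09), the membrane anchors of succinate dehydrogenase, Suclg2 (-0.33 ± 0.09), the GTP-forming partner of Suclg1, and Sucla2 (-0.27 ± 0.09), its ATP-forming partner (limma, all adjusted p under 0.05). The 1 gene that rose was Dhtkd1, an E1 enzyme of 2-oxoadipate breakdown that resembles Ogdh. It rose by 0.64 ± 0.18, from a mean of 113 to 171 normalized counts. In BAT-Mcu-KO mice 2 of 10 fell, Suclg2 (-0.26 ± 0.08) and Sdhc (-0.22 ± 0.08), near the 21.9% of all genes that fell, and none rose, beside 21.4%. Sdha, the flavoprotein of succinate dehydrogenase, was not called in either genotype.

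Genes around the cycle included some with larger changes. Of 4 cytosolic counterparts 3 fell in control mice, beside 23.7% of all genes, and 2 in BAT-Mcu-KO mice, beside 21.9%: Aco1, cytosolic aconitase, by 1.34 and 1.32 on the log2 scale, Acly, which splits citrate for lipid synthesis, by 1.59 and 1.75, and Idh1 by 0.68 in control mice. With Mcu deleted Idh1 was at -0.34 and did not pass (limma adjusted p = 0.0516). Among 11 enzymes that feed or drain the cycle, 3 rose in each genotype, near the 22.3% and 21.4% of all genes that did, among them Got1, cytosolic aspartate aminotransferase (3.01 ± 0.20 in control mice, 2.70 ± 0.19 with Mcu deleted) and Glud1, glutamate dehydrogenase (1.18 ± 0.21 and 0.70 ± 0.20). Pcx, which makes oxaloacetate from pyruvate, fell by 0.36 and 0.42, and Pck1, the cytosolic enzyme that turns oxaloacetate into phosphoenolpyruvate, by 0.70 and 0.40 on the log2 scale. Its mitochondrial form Pck2 fell with Mcu deleted (-0.75 ± 0.14), and in control mice it was at -0.32 ± 0.15 and did not pass (limma adjusted p = 0.0854). In all 2 of the 11 fell in control mice and 3 with Mcu deleted, beside 23.7% and 21.9% of all genes.

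Of 6 genes of other calcium-sensitive mitochondrial proteins in the table, 2 rose and 1 fell in each genotype, close to the shares of all genes (22.3% higher and 23.7% lower in control mice, 21.4% and 21.9% with Mcu deleted). Slc25a25, a calcium-binding ATP-magnesium/phosphate carrier, rose by 2.31 ± 0.39 in control mice and by 2.85 ± 0.37 with Mcu deleted, and its relative Slc25a24 by 1.57 ± 0.20 and 1.37 ± 0.19, whereas Slc25a23 fell by 0.87 and 0.94 (limma, log2 scale). Gpd2, the glycerol-3-phosphate dehydrogenase with a calcium-binding domain, and Pdp1, the calcium-activated phosphatase of pyruvate dehydrogenase, were not called. Slc25a12, also not called, rose with the summed muscle markers over all 23 mice, by 0.18 on the log2 scale for each doubling (limma adjusted p = 0.000195).

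For the counts that follow, 23.7% of all genes fell and 22.3% rose in control mice, and 21.9% and 21.4% with Mcu deleted. Of 5 genes for lipoate, the cofactor of Dlst, 3 fell in each genotype (Lias, Lipt1 and Mcat, the last by 1.15 and 1.06), as did 2 and 1 of 4 succinate dehydrogenase assembly factors. Of 12 respiratory chain subunits, set beside these for scale, 1 rose in each genotype (Cycs, cytochrome c, 0.32 ± 0.09 and 0.47 ± 0.08), and 2 fell in control mice. Markers of other cells moved with cold too: of 5 endothelial markers 2 rose in each genotype, and their summed level was 2554 to 3851 normalized counts at RT and 4698 to 7479 at 4°C in control mice, and 2852 to 3736 and 4380 to 6284 in BAT-Mcu-KO mice. Of 3 white adipocyte markers 2 fell in each genotype. The part of these cells in the changes above was not tested.

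**Figure D3:**
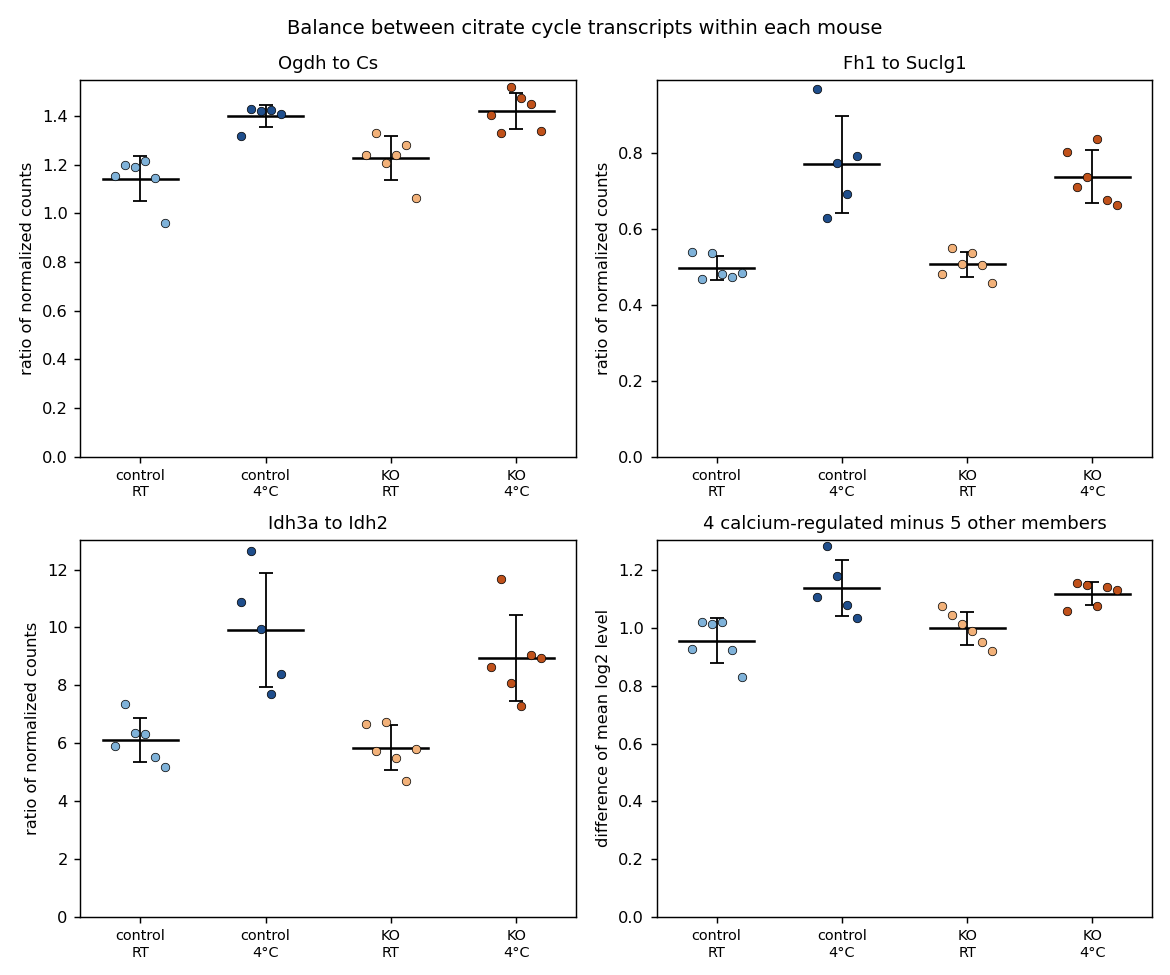
Ratios of normalized counts of 2 genes of the same mouse, and the mean log2 level of the 4 calcium-regulated genes minus that of the other 5 (linear axes from 0), with 1 point per mouse, a line at the mean and bars of 1 SD. Each of the 3 ratios is higher at 4°C than at RT in both genotypes with no overlap; the difference of the gene sets overlaps in BAT-Mcu-KO mice.

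Set against each other, the calcium-regulated genes and the other members parted slightly with cold. The mean log2 level of the 4 calcium-regulated genes exceeded that of the other 5 by 0.957 ± 0.077 (SD, n = 6) in control mice at RT and by 1.14 ± 0.10 (n = 5) at 4°C, and by 1.00 ± 0.06 (n = 6) and 1.12 ± 0.04 (n = 6) in BAT-Mcu-KO mice. In control mice the ranges, 0.830 to 1.02 at RT and 1.04 to 1.28 at 4°C, did not overlap; in BAT-Mcu-KO mice, 0.922 to 1.08 and 1.06 to 1.16, they did. In control mice the mean log2 level of the 4 was 14.60 at RT and 14.65 at 4°C. That of the other 5 was 13.65 and 13.51. In BAT-Mcu-KO mice the 4 were at 14.66 and 14.76, and the other 5 at 13.66 and 13.64. The parting was not uniform within either set, since Idh3b and Idh3g did not pass while Fh1 of the other set rose. In control mice the log2 fold changes of the other 5 ran from -0.45 for Idh2 to 0.28 for Fh1. With Mcu deleted they ran from -0.35 to 0.41 for the same 2 genes. The part of Idh2 alone in the parting was not tested. As the genes were chosen with results of these data known, no test was made on this difference.

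Ratios of single pairs are given as a description. Ogdh relative to Cs was 0.960 to 1.21 in control mice at RT and 1.32 to 1.43 at 4°C, and 1.06 to 1.33 (up to 1.330) and 1.33 to 1.52 (from 1.331) in BAT-Mcu-KO mice. Fh1 relative to Suclg1 was 0.468 to 0.538 and 0.629 to 0.967 in control mice, and 0.458 to 0.549 and 0.662 to 0.835 in BAT-Mcu-KO mice. Neither pair overlapped between temperatures, with a slight margin for Ogdh and Cs with Mcu deleted. Fh1 and Suclg1 both belong to the set of 5. Each ratio, like that of Idh3a to Idh2, sets a gene with a positive log2 fold change over one with a negative one, so a higher ratio in the cold follows from the choice of the pair and adds no support to the changes of the single genes.

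**Figure D4:**
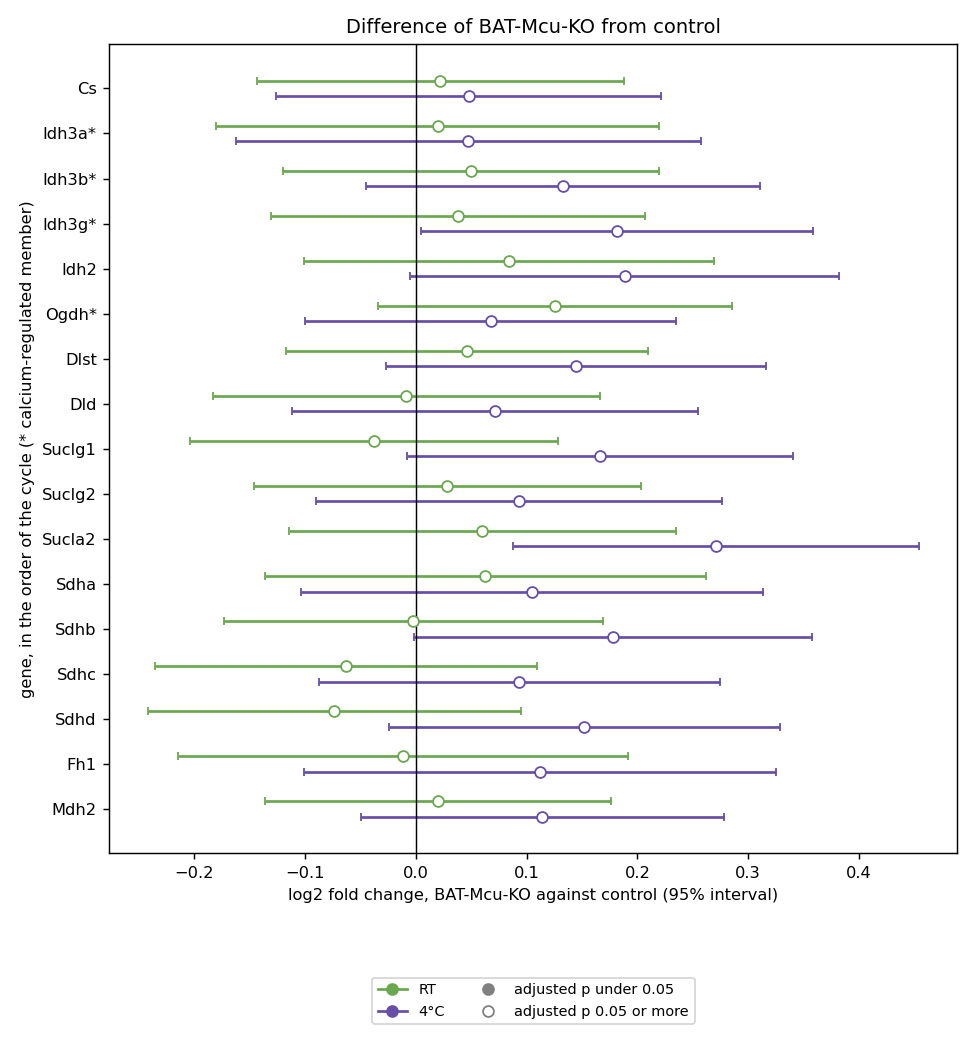
Log2 fold change of BAT-Mcu-KO against control mice with its 95% interval for 17 citrate cycle genes, at RT and at 4°C. No point is filled, since none passed at an adjusted p under 0.05, and all intervals include 0 other than those of Idh3g and Sucla2 at 4°C.

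With loss of Mcu, none of the 9 genes passed the test at RT, where 0.0478% of all genes did (7 genes). Log2 fold changes of the 9 ran from -0.04 for Suclg1 to 0.13 for Ogdh, and 0 of 9 had an unadjusted p under 0.05, beside 5.15% of all genes. On the recovered reads DESeq2 (0.137% of all genes) and edgeR (0.0478%) called none of the 9 either. For Ogdh, the largest difference, the values of 28450 to 34565 in control mice overlapped those of 30455 to 37308 with Mcu deleted, and the interval was -0.03 to 0.29. For Idh3a, Idh3b and Idh3g the intervals were -0.18 to 0.22, -0.12 to 0.22 and -0.13 to 0.21.

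At 4°C none of the 9 passed, against 0.0751% of all genes (11 genes). The 9 log2 fold changes were all above 0, from 0.05 for Cs and Idh3a to 0.19 for Idh2, and the 9 are not independent, since their levels moved together between mice. Idh3g was the 1 gene of the 9 with an unadjusted p under 0.05 (0.18, limma adjusted p = 0.701), beside 6.98% of all genes. DESeq2 (0.218%) and edgeR (0.041%) called none of the 9. Under quantile normalization the values for Cs and Ogdh fell below 0, and among mice with a summed muscle marker level under 10000 those of Cs, Idh3a, Ogdh and Fh1 did.

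The response to cold was not shown to differ between genotypes for any of the 9: 0% of all genes passed the interaction test in limma, with 5.99% at an unadjusted p under 0.05 and 0 of the 9 among them. DESeq2 called 28 genes (0.195%) and edgeR 0, none of them among the 9. The interaction values ran from -0.06 for Ogdh (interval -0.29 to 0.17) to 0.20 for Suclg1.

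Levels of the 9 genes relative to each other were compared per length. Per kilobase of all annotated exons (union of transcripts), Idh3a, Idh3b, Idh3g and Ogdh took the first 4 places in all 4 groups, at 5703 to 6914 normalized counts per kilobase in control mice at RT, where Cs was at 4725 ± 298 (SD, n = 6). Idh2 was lowest in every group, at 1955 ± 275 in control mice at RT. Among the first 4, neighbours differed by less than their spread: in control mice at RT Idh3g was at 6914 ± 740, Idh3b at 6430 ± 801, Idh3a at 6024 ± 552 and Ogdh at 5703 ± 398. With the length of the longest annotated transcript instead, Idh3a and Idh3b came first and Idh2 last in all 4 groups, but Ogdh came in place 4 to 6, so its place depends on the length taken.

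Between mice of the same group the 9 genes largely rose and fell together. Over 36 pairs of genes, the correlation of log2 levels after removal of group means had a median r of 0.60 (23 mice), from -0.21 for Idh2 with Ogdh to 0.84 for Cs with Idh3a, and Idh2 was in each of the 4 lowest pairs. All points share library, depth and scaling, and r is given as a description. Control 4°C mouse 4 was the lowest of its group for 8 of 9 genes, BAT-Mcu-KO 4°C mouse 4 for 6 of 9 and control RT mouse 5 for 6 of 9. The first of these had the highest share of reads on mitochondrially encoded transcripts of all mice, 38.1% against 23.1% to 34.8% in the others; the part of this share in the levels was not tested.

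Among 7693 genes with a mean of at least 100 normalized counts, those most like Idh3a by the same measure over 23 mice were Sdhd (r = 0.89), Isca1 (0.88) and Tmem70 (0.87). Those most like Cs were Sdhd (0.91), Trmt2b (0.90) and Samm50 (0.90), and those most like Ogdh were Ddhd2 (0.79), Hadha (0.79) and Sdha (0.77).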

How the data were processed

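RNA-seq was performed on BAT of 23 mice, 1 library each, in the 4 groups of the labels (Smart-seq2 libraries, paired reads). Per the study's methods and processing notes, the authors aligned reads with STAR 2.4.0j to mm10, counted uniquely mapped reads per gene with HTSeq without strand (GENCODE annotation), kept genes by a stated minimum of 8 reads in 6 samples and deposited counts normalized by DESeq2 size factors, a signal and not raw counts. In the table itself the lowest such value was 9: every gene had at least 9 recovered reads in at least 6 mice, 1 more than the stated minimum. All values were whole multiples of 1 read (within 0.01), so reads were recovered by division. Total reads per mouse were 7129271 to 21006347. A second deposited table holds the authors' own fold changes and p-values and was not used.

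The members and gene lists were chosen with earlier results of these data known. All 9 members were named, from each list up to 4 called genes with the largest log2 fold change (others where needed for a count; Sucla2, Sdha, Gpd2, Pdp1 and Slc25a12 were named after their values were seen), and for likeness the 3 genes with the highest r. log2(normalized count + 1) of 14651 genes was fitted with 1 mean per group (limma 3.58.1, R 4.3.3, variance trend), with Benjamini-Hochberg adjustment over all genes and 0.05 as threshold; a fold change is on that scale. Alternatives were pseudocounts of 0.5 and 10, filters (mean of 50, or 8 in every mouse), quantile and 75th percentile scaling, no trend, only the groups compared, a replicate block, DESeq2 1.42.0, edgeR 4.0.16, and each mouse left out; 2 more were chosen after seeing the data (summed muscle markers as a covariate, and mice with a sum under 10000). The fit was tested on simulated data.

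Within groups, chi-square per degree of freedom between libraries was 8.59 to 61.8 over 55 pairs, so each was treated as a library of its own. Positions are from the GENCODE annotation of GRCm38, a later release than the authors'. Idh3b shares 5 bases of exon with Nop56, 0.146% of its exons, and no other annotated transcript matched any of the 9 genes at 95% identity over 100 bases. In the gene lists, Ogdhl and Slc25a13, and the marker Cd3e, were not among the genes of the table. Some list members are not reported here by name. Of the other marker lists, the red blood cell and nerve lists had no member called with cold. The leukocyte list had 2 of 5 and the fibroblast list 1 of 4, both higher in BAT-Mcu-KO mice, beside 21.4% of all genes.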

Additional observations from a re-analysis of the deposited data

Results flagged for a closer look

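Ogdh in BAT-Mcu-KO mouse 4 at 4°C, at 32168 normalized counts, stood apart from the other 5 mice of its group, which lay between 35700 and 37608. The gap to its nearest neighbour was 0.649 of the range of the group, above Dixon's 95% critical value of 0.625 for 6 mice. It was the 1 value that stood apart among 36 sets of 1 gene in 1 group, and chance flags about 1 in 20 such sets.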

How the results depend on the processing

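Each result was recomputed under 36 alternatives (35 for the interaction), 23 of them leaving out 1 mouse. Idh2 with cold in both genotypes and Fh1 in BAT-Mcu-KO mice kept direction and call under all of them (Idh2 -0.58 to -0.39 in control and -0.50 to -0.29 in BAT-Mcu-KO mice, Fh1 0.36 to 0.44), and no alternative called any of the 9 genes by genotype or interaction. In control mice 5 of 9 genes passed with cold under quantile normalization, and 46% of all genes passed in the main fit. The share of all genes that passed under quantile normalization is not given here. Idh3a in control mice passed also with a mean of 50 or more (0.23, adjusted p = 0.0475) and quantile normalization (0.37, adjusted p = 0.000574). It passed too without control RT mouse 2, control 4°C mouse 4 or BAT-Mcu-KO 4°C mouse 4 (adjusted p = 0.0142 to 0.0485). Over all alternatives Idh3a in control mice ran from 0.12 to 0.37, with a limma adjusted p of up to 0.343. Fh1 in control mice did not pass with only the groups compared (0.28, adjusted p = 0.0887), nor Idh3a in BAT-Mcu-KO mice under 75th percentile scaling (0.21, adjusted p = 0.0885), where Idh3b in control mice passed (-0.22, adjusted p = 0.0428). That scaling lowered the share of higher calls among all genes called with cold in control mice from 48.5% to 38.2%. The causes of these shifts were not tested.

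Values near 0 changed sign. With cold, Idh3g in control mice was 0.031 under quantile normalization and 0.067 among mice with a summed muscle marker level under 10000, where Mdh2 in control mice was 0.077 and Idh3b in BAT-Mcu-KO mice 0.012; Idh3b was 0.0056 under quantile normalization, and Mdh2 0.0034 with the replicate block. By genotype at RT, Cs was -0.041 under quantile normalization and -0.0068 under 75th percentile scaling, which gave -0.0092 for Idh3a and -0.0088 for Mdh2, and Fh1 was 0.0093 with muscle markers as a covariate. At 4°C, Cs was -0.017 and Ogdh -0.032 under quantile normalization, and among mice with a sum under 10000 Cs was -0.13, Idh3a -0.11, Ogdh -0.054 and Fh1 -0.13. In the interaction, Idh3a was -0.051 under quantile normalization, and among those mice Cs was -0.15, Idh3a -0.15, Idh3g -0.038 and Fh1 -0.12. With 1 mouse left out, Mdh2 with cold in control mice ran from -0.049 to 0.035. By genotype at RT the ranges were -0.0058 to 0.057 for Cs, -0.024 to 0.057 for Idh3a, -0.016 to 0.073 for Idh3g, -0.079 to 0.012 for Suclg1, -0.065 to 0.042 for Fh1 and -0.021 to 0.058 for Mdh2. At 4°C they were -0.0020 to 0.089 for Cs and -0.032 to 0.12 for Idh3a, and in the interaction -0.024 to 0.067 for Cs and -0.051 to 0.096 for Idh3a.

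Counts over all genes were less stable by genotype. At RT, 3 genes passed with only the groups compared, 20 with DESeq2 and 4 among mice with a sum under 10000, against 7. At 4°C, 7 passed without the trend, 2 with only the groups compared, 27 with DESeq2, 6 with edgeR, 5 among mice with a sum under 10000 and 3 to 16 with 1 mouse left out (3 without control 4°C mouse 2), against 11. In the interaction 28 passed with DESeq2 and 0 to 1 with 1 mouse left out, against 0. Replicate numbers are different animals and did not pair the mice (mean correlation of same-numbered mice -0.10 to 0.12, with 2 of 5 pairs over 0.1 at most): the replicate block gave 7 genes by genotype at 4°C, and Idh3a in control mice passed with cold (0.24, adjusted p = 0.0206).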
